A study of Mus musculus with 12 samples.

Results

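The regions described here are stretches of open chromatin that every ATAC-seq library of mouse Th2 cells shared and that held more tags in the cKO-labelled libraries than in WT. Peaks of the 6 ATAC libraries that overlapped by at least 1 bp were merged into 114463 regions, and 33531 of these had a peak in every library. Of those, 32845 were autosomal and 30383 stayed under a mean height of 200 tags, the height being the tag count of the highest peak on the authors' scale of 10000000 tags per library. From these 30383 shared regions the members were chosen by their summed tags: the cKO-labelled mean had to be at least 1.4 times the WT mean, and each cKO-labelled sum had to lie above each WT sum. This left 1020 members, 3.36% of the shared regions. The mirrored rule, with WT on top, held for 6284 regions (20.7%), so a higher sum in the cKO-labelled libraries was the less common direction on the authors' scale. That order depended on the scaling: when each library was scaled to its median region, 6470 regions were higher and 2569 lower, and after quantile normalization 2508 were higher and 2823 lower. Because these sums chose the members, they are given as a description, with no test.

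Th2 cells are the helper T cells that secrete the cytokines of allergic inflammation. The series concerns NRF2, encoded by Nfe2l2, a transcription factor that turns on antioxidant genes. Both assays were run on 2 genotypes, wild type (WT) and conditional knockout (cKO). Each genotype had 3 libraries per assay, and all came from cells labelled as Th2. The deleted gene, the Cre driver, the strain, the age of the animals and whether replicates were separate animals are not given in the sources used here, so p-values measure only the spread between these libraries. Nfe2l2 RNA was higher in the cKO-labelled libraries (normalized counts of 169.92, 155.30 and 147.37 in WT against 452.83, 326.42 and 391.53, log2 change 1.29 with limma, adjusted p = 0.0438), so the group is called cKO-labelled throughout. Transcripts of the Y-linked genes Ddx3y and Eif2s3y ran from 116.8 to 140.5 in every WT RNA library and were listed at 0 in every cKO-labelled one, so sex and genotype cannot be told apart in the RNA data. Summed ATAC tags of chromosome Y peaks ran from 789.0 to 881.5 under the cKO label and from 877.9 to 1083.7 under WT. These ranges overlapped only through WT replicate 2, which had the lowest share of tags in peaks. WT replicates 1 and 3, at 1083.7 and 1079.8, lay above every cKO-labelled library. Chromosome Y peaks numbered 5, 7 and 7 in WT and 9, 7 and 8 under the cKO label. Summed tags of chromosome X peaks ran from 30027 to 48234 in WT and from 41981 to 44591 under the cKO label. The members are all autosomal, but whether sex differed between the ATAC groups was not tested. The defining Th2 gene Gata3 was present at 711.7 ± 37.5 and 719.7 ± 114.0 (SD, n = 3 each), while Il4 and Il5 did not exceed 12.4 in any library and Ptgdr2 did not exceed 6.75.

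ATAC-seq cuts DNA with a transposase wherever nucleosomes leave it accessible, so a tall peak marks DNA that is often open in the cells sampled. Promoters, the stretches in front of gene starts, are open in most cell types when they are rich in CpG dinucleotides, while enhancers inside and between genes open more selectively. The tags summed over a region can grow because the same stretch is read more densely or because the called peak becomes longer, and both are reported below.

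Tags per ATAC library ran from 13149952 to 18327127, and peaks per library from 54133 to 75017. One library stood apart. In WT replicate 2, 25.22% of tags lay in peaks, against 34.87% to 38.28% in the other 5. It was the lowest WT library at 898 of the 1020 members, where WT replicate 1 was the lowest at 55 and WT replicate 3 at 67. Without WT replicate 2, 342 of the 1020 members (33.5%) still met the rule, and the median ratio of the members was 1.34 in place of 1.49. Without it the rule applied anew to the same 30383 regions gave 386 regions; without WT replicate 1 it gave 2642, and without WT replicate 3 it gave 1900. Each result on the members is therefore given with and without WT replicate 2 where it moved.

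RefSeq promoter windows of GRCm38.p6, the 250 bases before a gene start and the 50 after it, lay inside 522 of the members for 617 gene starts. The 250 bases in front of 6 of these starts are printed, 5′ to 3′ on the gene's own strand, because the results below turn on them: the member with the highest ratio (C77080), the one with the largest gain in tags (Per3), 3 whose genes had lower RNA (Prdx1, Nme1, Snrpe) and a Th2 cytokine gene (Il13). They lie at chr4:129248444-129248693 (minus strand) for C77080, chr4:151044666-151044915 (minus) for Per3, chr4:116685349-116685598 (plus) for Prdx1, chr11:93968026-93968275 (minus) for Nme1, chr1:133610281-133610530 (minus) for Snrpe and chr11:53634703-53634952 (minus) for Il13. Capitals mark matches, on either strand, to 12 searched motifs, whose letters are given with their shares below: AP-1, the antioxidant response element core, GATA, ETS, RUNX, TCF, the GC box, the CCAAT box, the cAMP response element, NRF1, YY1 and CTCF.
C77080: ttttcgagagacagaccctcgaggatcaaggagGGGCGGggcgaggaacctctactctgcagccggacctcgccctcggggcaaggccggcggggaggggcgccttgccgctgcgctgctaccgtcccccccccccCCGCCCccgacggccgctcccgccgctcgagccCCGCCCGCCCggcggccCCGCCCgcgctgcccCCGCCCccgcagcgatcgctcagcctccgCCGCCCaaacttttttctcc
Per3: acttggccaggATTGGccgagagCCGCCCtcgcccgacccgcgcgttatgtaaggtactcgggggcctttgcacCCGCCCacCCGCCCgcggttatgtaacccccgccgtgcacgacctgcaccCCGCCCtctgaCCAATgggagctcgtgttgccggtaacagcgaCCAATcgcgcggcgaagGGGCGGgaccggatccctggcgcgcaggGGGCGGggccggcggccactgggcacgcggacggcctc
Prdx1: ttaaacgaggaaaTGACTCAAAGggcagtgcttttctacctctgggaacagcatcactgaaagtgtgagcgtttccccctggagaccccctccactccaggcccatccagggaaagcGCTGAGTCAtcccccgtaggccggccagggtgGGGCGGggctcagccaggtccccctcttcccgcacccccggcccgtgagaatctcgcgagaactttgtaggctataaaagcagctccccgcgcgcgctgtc
Nme1: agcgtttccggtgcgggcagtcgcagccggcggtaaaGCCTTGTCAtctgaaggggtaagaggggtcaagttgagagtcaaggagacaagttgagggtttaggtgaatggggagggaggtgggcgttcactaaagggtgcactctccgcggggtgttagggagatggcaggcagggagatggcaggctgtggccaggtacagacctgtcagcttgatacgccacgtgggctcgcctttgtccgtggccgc
Snrpe: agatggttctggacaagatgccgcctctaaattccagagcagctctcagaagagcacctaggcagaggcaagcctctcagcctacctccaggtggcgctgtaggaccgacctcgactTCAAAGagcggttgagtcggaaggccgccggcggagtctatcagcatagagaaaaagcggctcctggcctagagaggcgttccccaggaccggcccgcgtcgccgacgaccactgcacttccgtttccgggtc
Il13: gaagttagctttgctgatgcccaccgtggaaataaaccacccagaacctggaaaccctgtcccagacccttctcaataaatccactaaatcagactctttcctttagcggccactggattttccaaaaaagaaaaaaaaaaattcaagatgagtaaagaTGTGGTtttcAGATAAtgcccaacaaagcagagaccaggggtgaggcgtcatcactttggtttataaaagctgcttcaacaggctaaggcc

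The C77080 stretch held 7 GC boxes, with a pair that overlapped, and had a GC content of 76.4%. Per3, a clock gene, held 6 GC boxes and 3 CCAAT boxes. Prdx1, the gene of a peroxiredoxin that breaks down hydrogen peroxide, held 2 AP-1 matches, and the second of them was also the 1 match to the antioxidant response element core, since both patterns read the same letters; its 1 TCF match overlapped the first AP-1 match. Nme1 held 1 antioxidant response element core, Snrpe 1 TCF match and Il13 1 GATA and 1 RUNX match. The Il13 stretch was the poorest of the 6 in GC, at 43.2%, with 3 CpG dinucleotides against 33 at C77080. A match is a string of letters and was not tested for binding.

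Promoters inside members were rich in GC and CpG. Over the 617 windows the median GC content was 66.3%, against 61.7% for the 8464 windows inside any shared region, 52.3% for the 255 inside regions that were lower by the mirrored rule and 57.0% for all 20085 autosomal protein-coding windows. The ratio of observed to expected CpG had medians of 0.84, 0.77, 0.42 and 0.59 in the same order. For the 107 windows inside members that met the rule without WT replicate 2 the median was 0.77, the same as for any shared region. A GC box (GGGCGG), the site read by Sp family factors, was found in 78.1% of the member windows, 66.2% of all shared ones, 32.9% of those in lower regions and 47.0% of all windows. Among windows inside the tallest of 10 equal groups of shared regions the shares were closer, at 78.8% for members and 74.2% for all. The median CpG ratio there was 0.84 for members and 0.83 for all.

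For each other site the shares are given for member windows, all windows in shared regions and all autosomal windows, in that order. The antioxidant response element core (TGACNNNGC), which NRF2 and its partners read, was in 13.9% of member windows, 14.5% of shared ones and 13.1% of all. The AP-1 site (TGACTCA), read by Fos and Jun family factors after activation, was in 2.76%, 3.66% and 4.70%, and in 8.63% of the windows in lower regions. An ETS site (CCGGAAG), common in promoters of housekeeping genes, was in 16.2%, 19.2% and 11.9%. The RUNX site (TGTGGT) of T cell and blood factors was in 11.5%, 12.5% and 14.8%, and the GATA site (AGATAA) read by the Th2 factor GATA3 in 3.89%, 5.45% and 9.57%. A site of NRF1, a factor of nuclear genes for mitochondria, was in 13.3%, 10.1% and 6.55%, against 0.392% in lower regions. The cAMP response element (TGACGTCA) was in 4.86%, 3.41% and 2.3%. The CCAAT box, spelled by its name, was in 35.2%, 34.7% and 38.1%, and the TCF site (CTTTGA) of the Wnt pathway and of the T cell factor family in 9.08%, 11.2% and 14.2%. A YY1 site (AAGATGGC) was in 4.70%, 4.41% and 3.06% and a CTCF site, the boundary factor's consensus, in 1.94%, 1.91% and 1.16%. In the 107 windows inside members that met the rule without WT replicate 2, the GC box share was 76.6% and the median GC content 67.0%, while ETS was in 10.3% and NRF1 in 8.41%. In those windows GATA was in 6.54%, above the share of all shared windows, and RUNX (7.48%), AP-1 (0.935%, 1 window) and the antioxidant response element core (13.1%) were below theirs. In the tallest group, member windows had RUNX in 12.9% against 10.6% of all and AP-1 in 2.87% against 2.45%, while the antioxidant response element core (14.0% against 14.9%) and GATA (4.01% against 4.71%) were lower. NRF1 was in 15.8% of the member windows of that group and in 14.0% of all its windows.

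On the authors' scale members lay mostly at gene starts, defined as within 1 kb of the start of a protein-coding gene. There were 666 of them there (65.3%), where 30.7% of the shared regions and 5.95% of the regions lower by the mirrored rule lay. A further 188 (18.4%) lay inside genes and 166 (16.3%) between genes, against 38.0% and 31.3% of the shared regions. Seen from the other side, 7.14% of the 9326 shared regions at gene starts were members, against 1.63% of those inside genes and 1.74% of those between genes. The median ratio of all shared regions was 1.10 at gene starts, 0.76 inside genes and 0.77 between them, so starts as a class stood higher than other places on the authors' scale.

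This picture moved with the scaling and with WT replicate 2. When the members were rebuilt after quantile normalization, 40.4% lay at starts. Of the 666 members at starts, 145 (21.8%) met the rule without that library, against 56.4% of those inside genes and 54.8% of those between genes. The 342 members that met it were at starts in 42.4% of cases, and when the members were rebuilt from all regions without that library the share was 37.7%. The median ratio without WT replicate 2 was 1.31 for members at starts and 1.43 for the others.

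**Figure D1:**
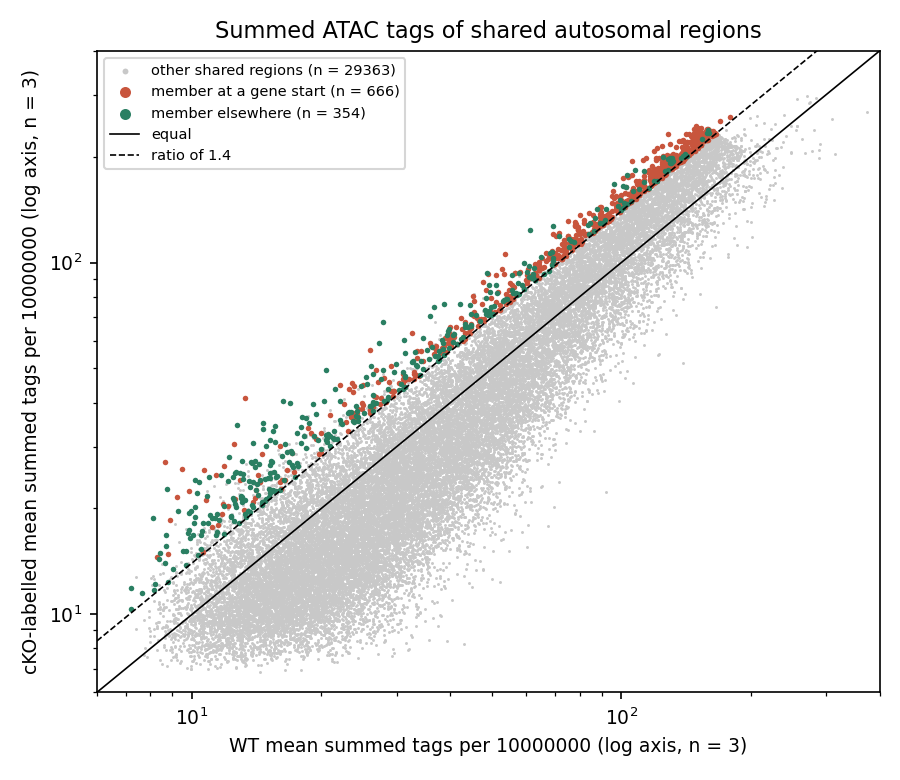
Mean summed ATAC tags per 10000000 of the 30383 shared autosomal regions, WT on the x axis and cKO-labelled on the y axis, both log axes, with n = 3 libraries each. Members at gene starts (666) gather among the regions with the most tags and members elsewhere (354) among those with fewer, all on or above the dashed line at a ratio of 1.4.

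Height went with membership. In 10 equal groups of shared regions by height, 0.691% of the lowest group were members, 5.73% of the group below the tallest and, in the tallest, with heights of 114.65 to 199.97 tags, 12.8%. The median height was 86.8 tags for members, 30.1 for all shared regions and 22.1 for those lower by the mirrored rule. Gene starts are taller than other regions, and 78.2% of the tallest group lay at them, but the members of that group were at starts in 89.5% of cases. In each of the 10 groups by height a larger share of members than of all shared regions lay at starts. The members that met the rule without WT replicate 2 had a median height of 30.4 tags, about that of all shared regions.

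**Figure D2:**
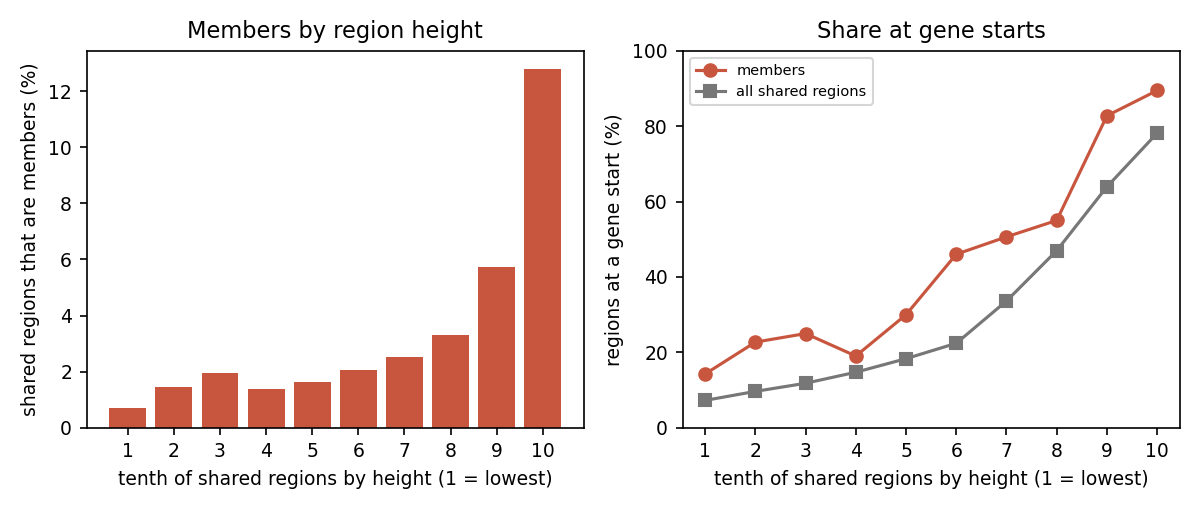
Left, the share of shared regions that are members in each of 10 equal groups by height; right, the share at gene starts among members and among all shared regions of the same group. Membership climbs from 0.691% to 12.8%, and the line of the members lies above that of all shared regions in each group, from 14.3% against 7.27% in the lowest to 89.5% against 78.2% in the tallest. Height was measured in the same libraries whose tags chose the members.

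The members had median summed tags of 80.8, 51.5 and 75.8 in WT replicates 1 to 3 and of 100.2, 105.8 and 106.7 in the cKO-labelled replicates. All shared regions had 39.3, 27.8 and 37.2, then 27.2, 28.5 and 26.2. Most members cleared the rule narrowly: the middle 50% of the ratios lay between 1.44 and 1.6, 488 reached 1.5, 43 reached 2 and 2 reached 3. The lowest cKO-labelled sum was at the median 1.16 times the highest WT sum, and at least 1.2 times in 356 members. A further 1567 regions had groups that did not overlap but a ratio under 1.4, which with the members makes 2587 (8.51%), and 363 reached the ratio with groups that overlapped. Just inside the limit, at ratios that round to 1.4, were a region inside Lif, one inside Kif27 and those at the starts of Usp2 and Aunip; just outside it were regions near Spsb1 and Prkcq and at the starts of Wsb1 and Zfand1.

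Members had more tags per kb both at starts and elsewhere, and elsewhere their peaks were also longer at the median. At the 666 starts, peaks were as long in both groups (ratio of mean peak lengths, median 1.01) and held more tags per kb: the medians were 75.1, 45.7 and 74.3 in the WT libraries and 98.7, 94.7 and 101.0 in the cKO-labelled ones. Tags per kb separated the groups, cKO-labelled above, at 403 of the 666, and peak length at 83. At the 354 members elsewhere the mean peak length had a median of 864 bp in WT and 1073 bp in cKO-labelled libraries, with a median ratio of 1.18, and tags per kb of 26.2 and 36.9, with a median ratio of 1.32. There tags per kb separated the groups at 142 and length at 97. Over all shared regions the same separations held for 10.3% and 1.88%. Tags per kb are the sums that chose the members divided by peak length, so the larger shares among members follow in part from the rule. In 929 members (91.1%) every library had a single peak.

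The 43 members that at least doubled differed more in peak length than in tags per kb. They were picked by the largest ratios of sums, which depend on peak length. All 43 had longer peaks in the cKO-labelled libraries, with a median length ratio of 2.10, while tags per kb had a median ratio of 1.08 and were lower than in WT at 12. They were low regions, with a median height of 20.2 tags, and 12 of them lay at gene starts. WT peaks of 500 bp recurred among them, as at C77080 (500, 789 and 500 bp) and Nfatc4 (500, 627 and 500 bp). The lowest tag count of a called peak was 5.28, 5.46 and 6.01 in the WT libraries. How far such short, low WT peaks shaped the length ratios was not tested. All 43 met the rule without WT replicate 2. Among the other 977 members peaks were longer in 60.9%, the median length ratio was 1.04 and the median ratio of tags per kb was 1.43.

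**Figure D3:**
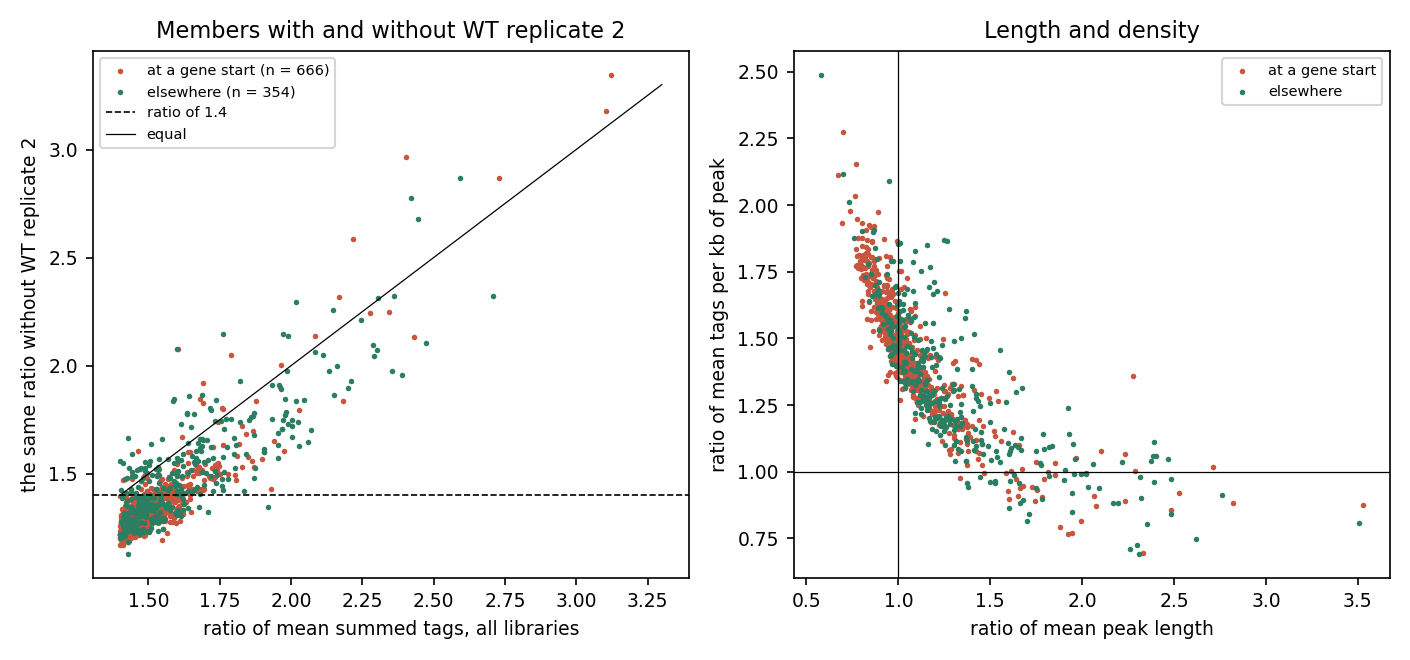
Left, the ratio of mean summed tags of each member with all libraries (x) and without WT replicate 2 (y), with the dashed line at 1.4; most points fall below the line of equality and 342 stay at or above 1.4 with groups that do not overlap. Right, the ratio of mean peak length (x) against the ratio of mean tags per kb (y), cKO-labelled over WT, whose product is close to the ratio of sums that chose the members, so the band they form comes from the rule; starts crowd near a length ratio of 1.01 and the longest gains reach 3.53.

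C77080, a gene of unknown function on chromosome 4, had the highest ratio, 3.12, at its start (129246976 to 129249639). Its summed tags were 8.30, 9.82 and 7.88 in WT against 27.9, 24.8 and 28.5 in the cKO-labelled ones. WT replicate 2 was here the highest of WT, and without it the ratio was 3.35. The mean peak length went from 596 to 1359 bp, so that tags per kb, at 16.6, 12.4 and 15.8 in WT and 24.3, 16.1 and 20.5, overlapped between groups. The GC-rich stretch printed above lies inside this region.

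Kdm4b, which encodes a histone lysine demethylase, followed at 3.10 (chromosome 17, 56398270 to 56403480). Sums were 16.2, 13.9 and 9.76 in WT against 25.5, 41.7 and 56.6 in the cKO-labelled ones, which differed among themselves more than the WT ones did. Mean peak length was 3.53 times that of WT, the largest gain of the 55 named regions, and tags per kb were lower, at 14.5 against 16.6. The start of Nfatc4, a member of the NFAT family of calcium-regulated factors, stood at 8.68, 10.4 and 9.39 in WT and 18.6, 24.5 and 34.6 in cKO-labelled libraries (ratio 2.73). Its RNA was under the filter, with 0.00 to 7.06 normalized counts per library.

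The next regions lay inside Aspg, an asparaginase homologue (ratio 2.71), inside 2700081O15Rik (2.59), inside Fibcd1, an acetyl-group receptor that binds chitin (2.47), 354974 bp from the olfactory receptor gene Olfr161 (2.44), at Tmem132e (2.43), inside the phosphatidylinositol transfer gene Pitpnm2 (2.42), at the pacemaker channel gene Hcn2 (2.40), inside the collagen gene Col8a2 (2.39) and 33825 bp from the repair gene Rad23b (2.36). In 11 of these 12 leading regions the mean peak length at least doubled. The region near Rad23b was the exception, with a length ratio of 1.26: its sums were 10.6, 9.82 and 10.1 in WT against 26.2, 22.3 and 23.6 in the cKO-labelled ones, and its tags per kb 21.2, 15.6 and 20.2 against 41.9, 33.6 and 30.7. Tags per kb kept the groups apart there, as the rule required of the sums. All 12 met the rule without WT replicate 2, with ratios from 1.96 to 3.35. Measured per kb, 5 of the 12 were on the other side of 1, at Kdm4b, Aspg, Olfr161, Tmem132e and Col8a2, with ratios of 0.81 to 0.97.

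In absolute tags the largest gain was at the shared start region of Per3, a clock gene, and Gm38529 (chromosome 4, 151043429 to 151045468). Sums were 159.3, 91.4 and 134.0 in WT against 212.1, 244.0 and 240.7 in the cKO-labelled ones, so 128.2 ± 34.3 became 232.3 ± 17.5 (SD, n = 3 each, ratio 1.81, and 1.58 without WT replicate 2). Also among the 6 largest gains were Rnf111, a ubiquitin ligase of TGF-beta signaling (148.0 ± 32.7 to 240.4 ± 7.83), Dcaf4 (141.5 ± 31.8 to 231.7 ± 10.7), the potassium channel gene Kcnh4 (121.3 ± 27.5 to 211.2 ± 16) and the transcription factor gene Tfcp2 (124.7 ± 34.7 to 214.2 ± 14.5). These 5 were gene starts and all 5 met the rule without WT replicate 2, at ratios of 1.44 to 1.58. In each of the 5, WT replicate 2 was the lowest library, and the WT SD exceeded the cKO-labelled SD.

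**Figure D4:**
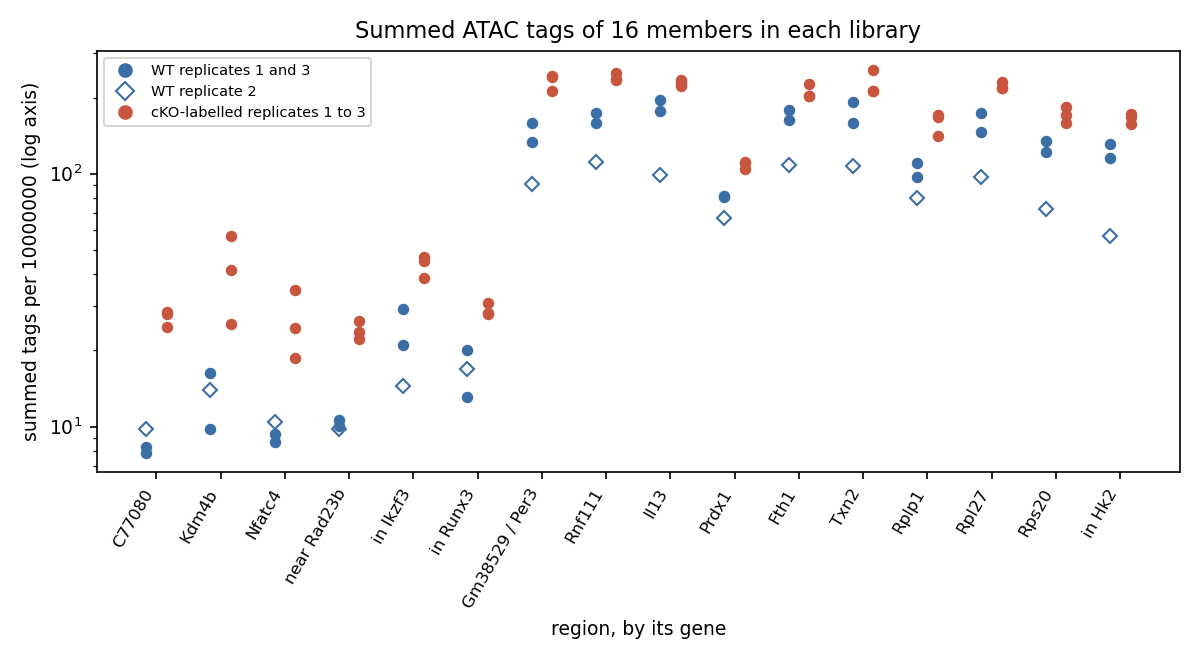
Summed ATAC tags per 10000000 (log axis) of 16 members in each of the 6 libraries. WT replicate 2, drawn as an open diamond, is the lowest point at each region from Ikzf3 to Hk2 other than Runx3, while at C77080 and Nfatc4 it is the highest of WT; at all 16 the cKO-labelled points lie above the WT points, as the rule requires.

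Among 20 gene lists, 18 held at least 1 member, in all 36 member regions, of which 5 met the rule without WT replicate 2. Cytosolic ribosomal protein genes held 8 members of 54 shared regions (14.8%), and at their starts 8 of 44 (18.2%, against 7.14% of all starts). The members were at Rplp1 (ratio 1.67), Rpl27 (1.6), Rps20 (1.56), Rpl26 (1.53), Rps16 (1.5), Rps12 (1.44), Rpl23 (1.42) and Rps18 (1.41). The median ratio over the list's 54 regions was 1.14, against 1.10 for all starts. Rplp1, a stalk protein of the large subunit, had sums of 109.8, 80.2 and 96.9 in WT against 170.0, 141.3 and 166.9 in the cKO-labelled ones. Rplp1 was the 1 ribosomal member that met the rule without WT replicate 2 (ratio 1.54); the other 7 then had ratios of 1.27 to 1.39. Processed copies of ribosomal protein genes exist elsewhere in the genome, and how reads shared with them were placed is not given in the sources used here.

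Genes of T cell identity and signaling held 1 member per list, and most of their shared regions lay away from starts. Over all shared regions 3.36% were members and 20.7% lower by the mirrored rule; inside genes the shares were 1.63% and 28.5%. Of 218 shared regions in or at genes of T cell receptor signaling 1 was a member, the region at the start of Mdk that also lies in Dgkz, a diacylglycerol kinase that dampens receptor signals (ratio 1.62, and 1.44 without WT replicate 2), while 59 were lower by the mirrored rule. Of 175 at other lineage factors 1 was a member, inside Runx3, and 64 were lower. Of 63 at Th2 factors and receptors 1 was a member, inside Ikzf3, the gene of the Ikaros family factor Aiolos, and 17 were lower. These regions outside starts had low sums. Those of Runx3 were 20, 16.9 and 13.1 in WT against 30.7, 28.2 and 27.8 in the cKO-labelled ones (ratio 1.73, and 1.75 without WT replicate 2). Those of Ikzf3 were 29.1, 14.5 and 21.0, then 46.9, 45.1 and 38.8 (2.02, and 1.74), with a mean peak length of 886 bp in WT and 1798 bp in cKO-labelled libraries and tags per kb of 25.7 and 24.2. Both met the rule without WT replicate 2.

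Of the Th2 cytokine and effector genes, Il13 and Lif held members, 2 of 15 shared regions (13.3%, against 3.36% of all shared regions). Of the 15, 13 lay at starts, and 1 of these was a member (7.69%, about the 7.14% of all starts). Il13 encodes interleukin 13, which drives mucus and airway reactivity. The region over its start (chromosome 11, 53634097 to 53636981) had sums of 196.3, 98.8 and 177.2 in WT against 235.2, 228.7 and 222.8 in the cKO-labelled ones (ratio 1.45). WT replicate 2 lay far below the other 2 WT libraries, and without it the ratio was 1.23. The region inside Lif, a cytokine of the interleukin 6 family, had 77.8, 47.7 and 77.7, then 93.5, 108.5 and 82.5 (1.4, and 1.22 without that library). Neither met the rule without WT replicate 2.

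Of the NRF2 pathway and its targets 2 of 53 shared regions were members (3.77%, against 3.36% of all shared regions) and 10 were lower by the mirrored rule. They were the starts of Prdx1 and of Fth1, the ferritin heavy chain that stores iron. Prdx1 (chromosome 4, 116684902 to 116686352) had sums of 81.1, 66.8 and 81.8 in WT against 104.5, 111.4 and 110.6 in the cKO-labelled ones (ratio 1.42, and 1.34 without WT replicate 2). Fth1 had 178.2, 107.8 and 163.3, then 203.1, 203.3 and 226.6 (1.41, and 1.24). The start of Txn2, the mitochondrial thioredoxin, was the 1 member among 22 regions of other antioxidant enzymes, with 192.1, 107.5 and 158.8, then 212.8, 257.2 and 211.4 (1.49, and 1.29). None of the 3 met the rule without that library.

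Signaling genes downstream of cytokine and growth factor receptors held 4 members of 96 shared regions (4.17%, against 3.36% of all), all at starts, among them the kinase genes Jak1 (ratio 1.48) and Map2k2 (1.42), while 27 of the 96 were lower by the mirrored rule, as were 20.7% of all shared regions. Jak1, a kinase of cytokine receptors, had sums of 175.9, 120.6 and 166.3 in WT against 226.3, 240.6 and 218.3 in the cKO-labelled ones, and without WT replicate 2 its ratio was 1.33. Glycolysis genes held 2 members of 37 shared regions (5.41%, against 3.36% of all). These lay inside Hk2, hexokinase, with 131.3, 56.5 and 114.9, then 167.6, 171.8 and 157.0 (1.64, and 1.34), and inside Pfkfb3 (1.47), a regulator of glycolytic flux. Oxidative phosphorylation held the starts of Ndufa2, shared with Ik (1.5), and of Cox8a (1.41), 2 of 43 regions (4.65%). Chromatin genes held the starts of the methyltransferase genes Setd2 (1.51) and Dnmt3a (1.45) and of Hdac1, shared with Marcksl1 (1.43), 3 of 101 (2.97%). The shares of these 2 lists were near the 3.36% of all shared regions. At starts the members were 2 of 38 (5.26%) for oxidative phosphorylation and 3 of 27 (11.1%) for chromatin genes, against 7.14% of all starts.

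The remaining lists held 1 or 2 members each, where 3.36% of all shared regions were members. Costimulation and checkpoint genes held 2 of 100 (2.0%), the death receptor gene Fas (1.45) and the ectonucleotidase gene Entpd1 (1.41). Homing and adhesion genes held 1 of 46 (2.17%), Icam1 (1.6, inside the gene). NF-kappaB genes held 1 of 48 (2.08%), the adaptor gene Traf2 (1.51). Interferon response genes held 1 of 34 (2.94%), the regulator Irf1 (1.4). Heat shock and folding genes held 1 of 18 (5.56%), the enzyme gene Pdia6 (1.46). Cell cycle genes held 2 of 44 (4.55%), Rb1 (1.47) and Cdc6 (1.42). Survival and death genes held 1 of 48 (2.08%), the death gene Bax (1.48). Of these members, Icam1 met the rule without WT replicate 2, with sums of 13.2, 10.9 and 10.5 in WT against 17.9, 14.4 and 23.2 in the cKO-labelled ones. Immediate early and AP-1 genes held 0 members of 19 shared regions and RNA processing genes 0 of 32, where 3.36% of all shared regions were members.

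Members were spread over all 19 autosomes, from 2.23% of the shared regions of chromosome 6 to 4.97% of those of chromosome 4. Few lay close together: 31 had another member within 10 kb and 218 within 100 kb. One cluster held 3 neighbouring members at Smok2a and Smok2b on chromosome 17. Those genes are near-identical copies, so reads could be split between them and their values are uncertain.

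RNA came from other libraries than the ATAC values, so the RNA of genes at members could be tested. limma was fitted over the 18074 genes whose mean reached 10 normalized counts, on log2 of the value plus 1, and 37 genes (0.205%) had an adjusted p under 0.05. Of these, 6 (0.0332%) had more RNA and 31 (0.172%) less RNA in the cKO-labelled group. In simulated data the fit called 19 of 100 genes with a true log2 change of 1 and 53 of 100 with a change of 2. A gene without a call is therefore not shown to be unchanged. The starts at members belonged to 729 genes, of which 686 were in the RNA table and 631 were tested; 55 were under the filter. Among the 631, 0 were higher and 5 were lower (0.792%): Nme1, Prdx1, Ndufa2, Snrpe and Lsm6. An unadjusted p under 0.05 was reached by 89 (14.1%, against 12.1% of all tested genes). The median log2 change was 0.06 and 55.3% were positive, the same median as over all tested genes, of which 55.0% were positive. Of the 8366 tested genes with a start at any shared region, members included, 0.251% were called and 14.3% had an unadjusted p under 0.05. By the adjusted p of the authors' deposited table, 24 of the 436 genes with an adjusted p passed 0.05 (5.50%, against 5.68% of all tested genes with one), 21 lower and 3 higher.

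The 5 called genes had less RNA in the cKO-labelled libraries, beside more tags at their starts, which the rule required. Nme1, a nucleoside diphosphate kinase, had normalized counts of 2981.3, 3982.0 and 4000.5 in WT against 1533.5, 1890.2 and 1482.2 in the cKO-labelled ones (log2 change -1.16, SE 0.163, limma adjusted p = 0.0221). Its start region on chromosome 11 (93967028 to 93969003) held 172.1, 108.3 and 153.6 tags in WT against 208.7, 238.6 and 215.2 in the cKO-labelled ones. The RNA values did not overlap between groups, and the sums could not, since the rule required it. The ratio of its region was 1.53, and 1.36 without WT replicate 2.

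Prdx1 RNA was at 2559.8, 2506.2 and 2698.5 in WT against 1336.7, 1339.5 and 1510.7 in the cKO-labelled ones (log2 change -0.89, SE 0.138, limma adjusted p = 0.0421). Its replicates were close together in both groups. Ndufa2, a subunit of respiratory complex I, was at 1230.7, 1667.0 and 1676.2 in WT and 686.6, 781.1 and 622.0 (-1.12, limma adjusted p = 0.0421), beside sums of 135.9, 86.8 and 128.0 and of 162.1, 181.3 and 183.7 at its region, which also holds the start of Ik. Ik, an RNA splicing factor, had a log2 change of 0.13 with RNA values that overlapped (adjusted p = 0.851), so 1 of the 2 genes at that region was called; the difference between them was not tested.

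Snrpe, a core protein of the spliceosomal particles, was at 1365.7, 1376.4 and 1517.6 in WT against 663.7, 832.3 and 637.4 in the cKO-labelled ones (log2 change -1.01, limma adjusted p = 0.0421). Its region on chromosome 1 (133609507 to 133610900) held 148.3, 82.7 and 172.7 tags in WT against 188.3, 192.3 and 210.3 in the cKO-labelled ones (ratio 1.46, and 1.23 without WT replicate 2). Lsm6, a ring protein of RNA decay and splicing, was at 600.9, 703.1 and 769.8 in WT and 279.8, 360.2 and 332.9 (-1.09, limma adjusted p = 0.0438), with sums of 60.8, 40.9 and 69.1 and of 78.0, 94.5 and 70.0 at its region on chromosome 8. The lowest cKO-labelled sum there lay 0.9 tags above the highest WT sum.

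The 5 calls depended on single libraries and on the fit, while the changes stayed of similar size. The number of genes lower at members was 0 when RNA library WT replicate 2 or 3, or cKO replicate 1 or 3, was left out, and 8 without cKO replicate 2. With all libraries kept it was 0 without the mean-variance trend and 1 after quantile normalization. Over the 6 left-out libraries the log2 changes of the 5 genes ran from -1.30 to -0.86. None of the 5 regions met the rule without ATAC library WT replicate 2, and among the 116 tested genes at members that did, 0 were called, 16 (13.8%) had an unadjusted p under 0.05 and the authors' table called 1.

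The genes with the next smallest p did not pass. They were mostly lower: the ribosomal protein genes Rps12 (log2 change -0.67, limma adjusted p = 0.0758), Rplp1 (-0.61, 0.0896) and Rps20 (-0.66, 0.111), Il13 (-1.04, 0.0834), the TFIIH subunit gene Gtf2h5 (-0.73, 0.0865), the mitophagy gene Bnip3 (-1.21, 0.112), the ATP synthase genes Atp5pb (-0.57, 0.12) and Atp5mpl (-0.88, 0.124) and the antiproliferative gene Btg3 (-1.03, 0.124). Trp53inp1, a stress gene induced by p53, was the 1 with a positive change (0.74, 0.0896), from 2115.8, 1690.3 and 2085.3 in WT to 3617.5, 2635.5 and 3614.2. In all 10 the values of WT and cKO-labelled libraries did not overlap. Il13 RNA was at 1092.6, 693.0 and 644.6 in WT against 322.4, 438.1 and 393.6 in the cKO-labelled ones, where the sums at its start were higher; the authors' deposited table called it lower (authors' adjusted p = 0.00104). Over all 631 genes, values did not overlap with WT above in 76 (12%, against 9.76% of all tested genes) and with cKO-labelled above in 48 (7.61%, against 7.4%). Lower RNA in some families was not particular to members. Of 51 tested ribosomal protein genes 45 had negative log2 changes (median -0.30), as had 7 of the 8 at member starts (-0.33). So had 46 of 50 oxidative phosphorylation genes (-0.36) and 15 of 18 antioxidant enzyme genes (-0.31). Other lists had positive medians, such as T cell receptor signaling (0.27).

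RNA of the genes at the leading regions gave no call, which does not show that it was unchanged. Kdm4b had 255.1, 113.0 and 290.6 in WT against 343.7, 274.3 and 390.2 in the cKO-labelled ones (log2 change 0.71, limma adjusted p = 0.403), with groups that overlapped. Per3 was at 136.8 ± 46.7 and 161.6 ± 52.5 (0.26, 0.802), Rnf111 at 310.5 ± 16.9 and 289.4 ± 29.7 (-0.10, 0.875) and C77080 at 12.1 ± 3.54 and 15.7 ± 9.23 (0.17, 0.952). Hcn2, Kcnh4, Tmem132e and Kif27 were under the filter. Of the list genes, Icam1 was at 1140.5, 931.0 and 933.0 in WT and 1594.3, 1377.8 and 1745.0 (0.65, limma adjusted p = 0.119), while Bax (-0.44, 0.161), Fth1 (-0.33, 0.311) and Txn2 (-0.32, 0.378) had lower values without overlap and did not pass.

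**Figure D5:**
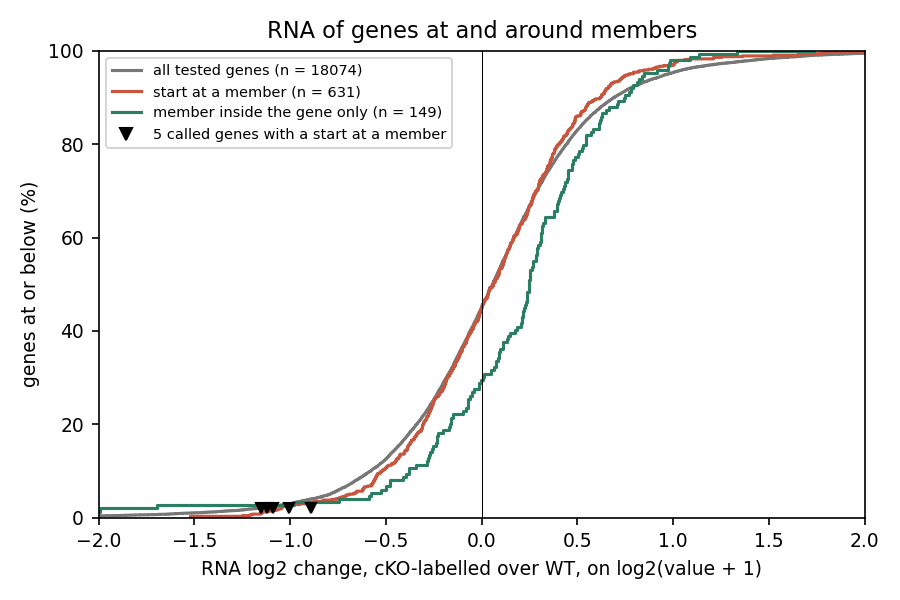
Cumulative share of genes (y, percent) by RNA log2 change, cKO-labelled over WT (x), for all 18074 tested genes, the 631 with a start at a member and the 149 with a member inside the gene and none at the start. The first pair of curves nearly coincide with medians of 0.06, the third lies to the right with a median of 0.25, and the 5 called genes are marked by triangles at log2 changes of -1.16 to -0.89.

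Genes with a member inside and none at the start had mostly positive RNA changes. Of 149 tested, 106 (71.1%) were positive, the median log2 change was 0.25, and 0 were called by limma, with 22 (14.8%) at an unadjusted p under 0.05 and 5 called higher and 0 lower in the authors' deposited table. Values did not overlap with cKO-labelled above in 17 (11.4%, against 7.4% of all tested genes) and with WT above in 5 (3.36%, against 9.76%). Among 1542 tested genes with any shared region inside and none at the start, 63.3% were positive and the median was 0.14. Of those 1542, 16.1% had an unadjusted p under 0.05 in limma. Their values did not overlap with cKO-labelled above in 11.1% and with WT above in 6.61%. The authors' table called 5.98% of those with an adjusted p, against 5.15% of such genes with a member inside. Gene length moved with this: the median span was 68.2 kb for the 149 and 51.8 kb for the 1542, and among genes of known span the median log2 change went from -0.05 in the shortest of 5 equal groups to 0.15 in the longest, where 63.7% were positive. Of the 149, 73 were in that longest group and 71.2% of them were positive; the part of length in the result was not tested. Without ATAC library WT replicate 2, 86 genes had such a member and 73.3% were positive, with a median of 0.27.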

How the data were processed

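RNA-seq and ATAC-seq were analysed from 6 libraries each, 3 WT and 3 cKO-labelled, grouped by the labels. The submitters' processing notes name Bowtie2 2.3.5.1, HOMER 4.11, STAR, RSEM 1.3.3, edgeR, DESeq2 and the mm10 build, with no settings. RNA values are deposited as a signal: counts the authors normalized, with decimals, so raw depth is unknown; totals ran from 6431081 to 7372007. The same table gives a deposited log2 change, p-value and adjusted p-value. Each ATAC library has 1 peak list by HOMER. In it, per the file headers, tag counts are a signal on a scale of 10000000 tags, and the peak score, a score before scaling, and the clonal fold, a ratio, are deposited beside them. Per the file headers the Poisson p-value limit for peaks was 0.001, with at most 1 tag counted per bp. Peaks were found in HOMER's histone style, per the file headers, which joins neighbouring signal into peaks of variable length, so a peak's tag count depends on its length. A difference in the share of tags in peaks between libraries moves summed tags at many regions together on this scale.

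Peaks were merged, summed and placed in Python 3.11.15 (numpy 2.4.6, pandas 2.3.3). Gene starts came from the RefSeq promoter table of GRCm38.p6 and, where a gene was missing there, from both ends in the gene table, which matched 82.8% of the RNA genes by symbol. RNA was tested with R 4.3.3 and limma 3.58.1 (moderated with a mean-variance trend, pseudocount 1, Benjamini-Hochberg adjustment over all genes), a fit that was tested on simulated data; the planned unit was a normalized count and limma was kept for the signal. Figures were drawn with matplotlib 3.10.9. The plan searched motifs in 300 bases around each region's centre; with no genome used here, RefSeq promoter windows took their place, and chromosome 18 has none. Named were the 12 members with the highest ratio, the 6 with the largest difference, 4 on each side of the limit, up to 3 per gene list, every called gene, the 10 with the next smallest p, the genes of the named regions and Nfe2l2. The remaining ribosomal members, Map2k2 and the Smok2a cluster fall outside this rule and were named after their values were seen. Some items that the rule picks are not reported here. The members, the gene lists and the tests were chosen with earlier results of these data known. Gene lists are described by counts, with no test. Markers of T cells took 0.194% to 0.198% of the RNA total in WT and 0.185% to 0.217% in cKO-labelled libraries; those of B cells, myeloid cells, CD8 T and NK cells and epithelial and stromal cells each took at most 0.00643%, and 0 of 3 neutrophil markers were in the table. Alternatives were other scalings, measures, overlaps, thresholds, peak filters, pseudocounts, RNA filters, RNA normalizations, models of the variance, a block for the replicate number, each library left out, and other distances to gene starts. Rebuilding the members without WT replicate 2, per kb or with no height limit for the share at gene starts and the RNA counts, and scaling without chromosome M, were chosen after seeing the data.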

Additional observations from a re-analysis of the deposited data

How the results depend on the processing

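The number of members, 1020, depended on how libraries were scaled and on single libraries. It was 1016 when peaks had to share 100 bp, 885 with peaks of at least 2 times the lowest tag count, 823 with equal peak numbers, 1032 by the highest peak and 1145 when tags on chromosome M were left out of the scaling. It was 6470 after scaling to each library's median, 1636 to its total, 2508 after quantile normalization, 1818 by tags per kb, 2443 and 249 at ratios of 1.2 and 1.6, and 2078 with no height limit. Leaving out 1 library gave 430 (without WT replicate 2) to 2669 (without WT replicate 1), and 1904 without WT replicate 3. Under the 5 other scalings and measures 200 regions always met the rule, 114 of them (57.0%) at starts. The share at gene starts, 65.3%, was 73.2% within 5 kb, 63.3% with the start inside the region, 40.4% after quantile normalization, 37.7% without WT replicate 2, 76.8% per kb and 79.6% with no height limit; of all shared regions 40.7% lay within 5 kb. Among 51 named members, log2 ratios turned negative per kb at Kdm4b (-0.19), Aspg (-0.31), Olfr161 (-0.042), Tmem132e (-0.18), Col8a2 (-0.13) and Ikzf3 (-0.087).

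The 37 RNA calls became 6 without the trend, 1783 with sample quality weights and 526 by the authors' adjusted p; leaving out 1 library gave 1 to 150. The 5 lower and 0 higher genes at members became 1 and 1 after quantile normalization, 0 lower without the trend, 34 and 34 with weights, and 21 and 3 by the authors' adjusted p; left-out libraries gave 0 to 8 lower and 0 to 1 higher. With members rebuilt without the ATAC library WT replicate 2 there were 0 lower, and with members rebuilt after quantile normalization 1 lower and 1 higher. The replicate number as a block gave 122 calls over all genes, 8 lower and 1 higher at members; same-number correlations of 0.116, 0.206 and -0.055 do not show that the numbers pair the libraries, and WT replicate 1 correlated best with cKO replicate 3 (0.215). Each of the 5 called genes passed in 9 to 11 of 16 alternative fits. The causes were not tested. Motifs in whole regions were not run for want of a genome here, and the raw depth of the RNA libraries, unknown here, limits what low genes can show.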
